A study of Mus musculus with 8 samples.

Results

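The 9 Wnt and beta-catenin pathway genes described here, Ctnnb1, Apc, Axin1, Axin2, Gsk3b, Lrp6, Lef1, Tcf7 and Tcf7l2, were taken by symbol from a table of 15576 genes measured by bulk RNA-seq in leukemic stem cells (LSCs) of mice. The rule used the symbols only and no measured value, and each of the 9 had 1 row in the table. The mice were BCR-ABL×SCL-tTA double transgenics on a C57BL/6 background, in which the human oncogene is driven in stem and progenitor cells once tetracycline is taken away, and all of them carried both transgenes and had chronic myeloid leukemia (CML). 4 libraries came from untreated mice (CML) and 4 from mice given 400 mg/kg imatinib by gavage every alternate day for 4 weeks (CML-TKI), imatinib being the tyrosine kinase inhibitor (TKI) that blocks BCR-ABL. The age of the mice was not given in the sources used here, the sources differ on the dose of imatinib, and nothing says whether a library was 1 animal, so the p-values measure the spread between these libraries. The column of the fourth CML library carries the number 5 and is called CML 5.

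In the canonical Wnt pathway, a secreted Wnt ligand binds a Frizzled receptor together with LRP6, and Dishevelled then holds back a destruction complex built on AXIN1, AXIN2 and APC, in which GSK3B and casein kinase 1 mark beta-catenin for breakdown. When the complex is held back, beta-catenin (Ctnnb1) collects and enters the nucleus, where it works with the DNA-binding factors TCF7, LEF1 and TCF7L2 on target genes that include Axin2 itself. The pathway is known in blood for its part in stem cell self-renewal and in early T cell development, and beta-catenin has been studied as a support of CML stem cells. Most of this control acts on the protein, so that the level of a transcript does not show whether the pathway is on.

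Both groups carried labels of the same sort for LSK Flt3-negative cells, written there as CD150-negative and CD48-positive, while the paper describes LSCs as CD48-negative and CD150-positive. Slamf1, which encodes CD150, lay at 29.01 to 37.7 CPM (counts scaled to the size of the library) in the CML libraries and at 0.620 to 6.58 CPM in the CML-TKI libraries. The reverse was seen for Cd48, at 3.86 to 6.40 CPM against 39.9 to 178.2 CPM, and both passed the test (adjusted p = 0.00797 and 0.00087 from edgeR). Kit, which defines LSK cells, fell as well, from 764.0 to 1023 CPM down to 194.3 to 290.4 CPM (log2 fold change -1.92, adjusted p = 0.00087), while Ly6a, which encodes Sca1, and Flt3 did not pass the test (adjusted p = 0.373 and 0.522). The 12 HSC markers summed to 1213 to 1572 CPM in CML and 48.0 to 450.7 CPM in CML-TKI libraries, the 12 granulocyte markers to 135.1 to 232.6 and 1475 to 8468 CPM, and the 7 monocyte markers to 24.7 to 32.1 and 729.2 to 3825 CPM. The 6 megakaryocyte markers summed to 1220 to 1459 and 52.1 to 528.9 CPM. CML-TKI 1 lay nearest to the CML libraries in the sums for HSC (450.7 beside 48.0 to 103.0 CPM in the other CML-TKI libraries), granulocytes (1475 beside 7729 to 8468) and monocytes (729.2 beside 2131 to 3825). In the megakaryocyte sum CML-TKI 4 was nearest, with 528.9 CPM beside 52.1 to 224.3 CPM. CML-TKI 3 stood apart in the 7 erythroid markers, with 31624 CPM beside 55.2 to 500.5 CPM in the other CML-TKI and 142.2 to 240.3 CPM in the CML libraries. Every value for the Wnt genes is therefore given between groups that also differed in these markers, and the part of the markers in the Wnt values was not tested. In bulk samples, fewer cells of a type and less RNA per cell cannot be told apart. Total counts were 4939644 to 8620101 in the CML and 1041552 to 5104268 in the CML-TKI libraries, of which CML-TKI 3 had the fewest. CML 1 to 3 were close to each other, with a chi-square per degree of freedom of 3.90 to 5.93 between pairs, against 93.7 to 96.8 between each of them and CML 5 and 26.3 to 65.5 between CML-TKI libraries. They differed beyond sampling noise and were counted as 3 libraries, but no source says that they came from separate animals. If they share a source, n = 4 counts it more than once and the CML spread and the p-values are too small. With CML 1 to 3 summed to 1 library, 122 genes were called in place of 1220.

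The windows before the transcript starts were read to show the sequence around the genes whose values follow. RefSeq (GRCm38.p6) gave 12 windows of 250 bases before a start for 6 members, Ctnnb1, Axin2, Gsk3b, Lef1, Tcf7 and Tcf7l2. They were searched on both strands for the core of the TCF/LEF site, CTTTGA, which reads as TCAAAG when it lies on the other strand, and for the gamma-activated site of the STAT factors, TTCNNNGAA, which reads the same on both strands. The TCF/LEF core was in 2 of the 12 windows, or 16.7%, beside 13.8% of 32851 windows of the same length from all genes. TTCNNNGAA was in 0 of the 12 windows and in 7.02% of the 32851, and no 2 matches overlapped. Both windows of Ctnnb1 overlap each other, as do the first 2 of Lef1, so the 12 are not separate stretches. A match is a description of the letters and not a bound site. Shown are the window of Axin2, the member whose level passed the test below, the first of 2 of Ctnnb1, the member with the highest level, and those of Gsk3b and Lef1, the members with a match, which is in capitals and lies 77 to 72 bases before the Gsk3b start and 180 to 175 and 120 to 115 bases before the last of 4 Lef1 starts. All 4 are on the plus strand, 5′ to 3′, and end at the base before the start.
Axin2, chr11:108920099-108920348: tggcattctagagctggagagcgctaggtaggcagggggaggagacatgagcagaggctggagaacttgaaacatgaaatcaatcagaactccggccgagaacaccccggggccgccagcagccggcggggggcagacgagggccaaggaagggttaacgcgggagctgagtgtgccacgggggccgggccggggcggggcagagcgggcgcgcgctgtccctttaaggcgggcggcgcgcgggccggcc
Ctnnb1, chr9:120933150-120933399: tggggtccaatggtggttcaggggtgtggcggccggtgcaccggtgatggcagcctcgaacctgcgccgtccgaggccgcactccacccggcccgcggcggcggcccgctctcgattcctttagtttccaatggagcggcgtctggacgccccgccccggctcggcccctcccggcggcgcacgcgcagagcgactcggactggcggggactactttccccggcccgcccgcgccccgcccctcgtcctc
Gsk3b, chr16:38088751-38089000: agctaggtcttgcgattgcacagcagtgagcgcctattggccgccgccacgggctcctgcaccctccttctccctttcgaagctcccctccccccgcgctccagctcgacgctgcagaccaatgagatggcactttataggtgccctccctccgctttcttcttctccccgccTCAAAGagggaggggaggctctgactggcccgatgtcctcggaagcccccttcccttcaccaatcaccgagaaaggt
Lef1, chr3:131156044-131156293: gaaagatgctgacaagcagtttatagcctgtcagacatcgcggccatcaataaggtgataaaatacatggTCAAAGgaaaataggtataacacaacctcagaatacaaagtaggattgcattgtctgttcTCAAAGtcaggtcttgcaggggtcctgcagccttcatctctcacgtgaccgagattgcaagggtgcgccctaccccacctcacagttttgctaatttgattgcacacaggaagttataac

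The 9 genes were compared between CML-TKI and CML LSCs to see whether the pathway's transcripts differed with TKI treatment. Axin2, a scaffold of the destruction complex and a widely used target gene of the pathway, rose 7.13-fold in CML-TKI LSCs, and it was the only member past the threshold. Ctnnb1 was lower in each CML-TKI library than in each CML library, by a fold of 0.781, without passing the test. The scaffolds Apc and Axin1, the kinase Gsk3b, the co-receptor Lrp6 and the factor Tcf7l2 did not pass it either and overlapped between the groups, and Lef1 and Tcf7 had too few counts to be tested. Of the 7 members tested with edgeR's quasi-likelihood test, 1 was called higher and 0 lower at a Benjamini-Hochberg adjusted p under 0.05 over all 11937 genes tested, where 10.2% of those genes were called, 6.29% higher and 3.93% lower. At an unadjusted p under 0.05 the count was also 1 of 7, where 25.7% of all genes tested passed. The groups did not overlap for Axin2, higher in every CML-TKI library as were 10.3% of all genes tested, and for Ctnnb1, lower in every CML-TKI library as were 13.1%. The median log2 fold change of the 7 members was -0.04, beside -0.00026 over all genes tested.

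**Figure D1:**
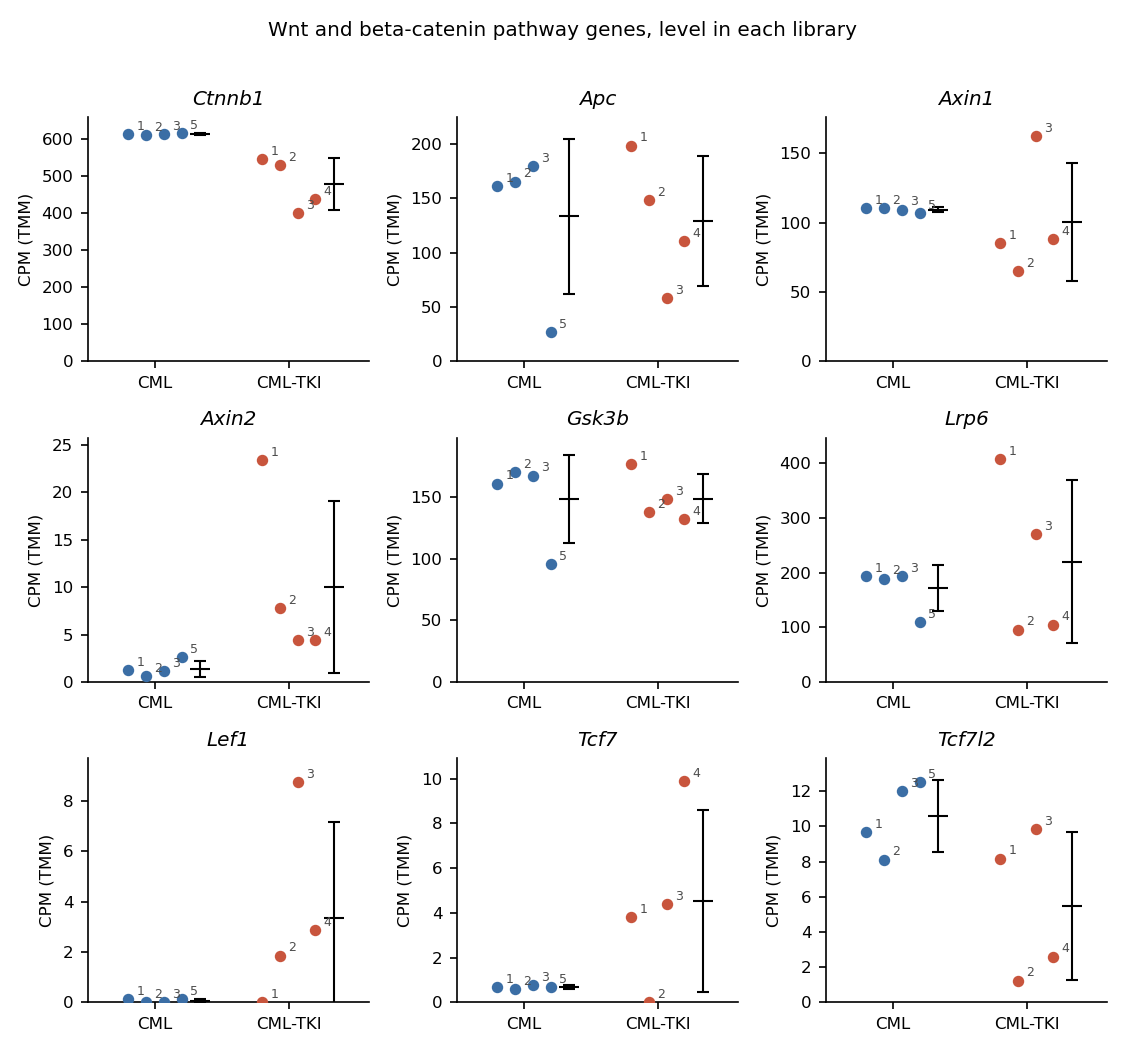
Level of each of the 9 genes in each library, in TMM-normalized CPM on a linear axis from 0, with the library number beside each point and the mean ± SD of the group (n = 4) as a black bar, whose lower end is cut at 0 for Lef1. All CML-TKI points lie below the CML points for Ctnnb1 and above them for Axin2, and CML 5 lies below the other CML libraries for Apc, Gsk3b and Lrp6.

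Levels were compared between the genes per kb of exon, since longer transcripts collect more counts. In CML LSCs, Ctnnb1 was highest at 168.9 ± 0.551 CPM per kb (SD, n = 4), followed by Axin1 at 28.96 ± 0.428, Lrp6 at 18.3 ± 4.46, Gsk3b at 17.8 ± 4.25 and Apc at 10.2 ± 5.42 CPM per kb. The low members were Tcf7l2 at 2.39 ± 0.464, Axin2 at 0.327 ± 0.202, Tcf7 at 0.259 ± 0.0302 and Lef1 at 0.0195 ± 0.0225 CPM per kb. Neighbours in this order whose libraries overlapped were Lrp6 and Gsk3b, Gsk3b and Apc, Apc and Tcf7l2, and Axin2 and Tcf7, and the other neighbours were separate in all 4 libraries. In CML-TKI LSCs the first 5 kept their order, with Ctnnb1 at 131.8 ± 19.3, Axin1 at 26.6 ± 11.3, Lrp6 at 23.5 ± 15.9, Gsk3b at 17.8 ± 2.38 and Apc at 9.82 ± 4.52 CPM per kb (SD, n = 4). Axin2 followed at 2.34 ± 2.13, then Tcf7 at 1.72 ± 1.55, Tcf7l2 at 1.23 ± 0.947 and Lef1 at 0.962 ± 1.08 CPM per kb. The libraries of Ctnnb1 were separate from those of Axin1, and those of Gsk3b from those of Apc, while the other neighbours overlapped.

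Lrp6, the co-receptor that carries the Wnt signal across the membrane with Frizzled, spans chromosome 6 from 134446476 to 134566913 of GRCm38 on the minus strand. It had 194.2, 189.0, 193.8 and 108.9 CPM in CML 1, 2, 3 and 5, and 408.0, 95.8, 270.7 and 104.8 CPM in CML-TKI 1 to 4. CML-TKI 1 and 3 lay above all CML libraries and CML-TKI 2 and 4 below them, so that the spread between CML-TKI libraries was larger than the difference between groups. The difference was 0.36 on the log2 scale (standard error, SE, 0.45, 95% interval of the fold 0.635 to 2.59, edgeR adjusted p = 0.673). Without CML-TKI 1 it was -0.15.

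The destruction complex held 4 members. Axin2, on chromosome 11 from 108917828 to 108950783 on the plus strand, had 1.23, 0.579, 1.16 and 2.61 CPM in CML 1, 2, 3 and 5, and 23.4, 7.75, 4.38 and 4.42 CPM in CML-TKI 1 to 4. These came from 9, 3, 6 and 19 counts in the CML and 123, 25, 4 and 17 counts in the CML-TKI libraries. CML-TKI 1 was highest by far, and the lowest CML-TKI library, CML-TKI 3, rested on 4 counts, close to the floor of 3 counts, which was 3.29 CPM there. The log2 fold change was 2.83 (SE 0.78, edgeR adjusted p = 0.0468), which is a fold with a 95% interval of 2.15 to 23.6. The exact two-sided permutation test over the 8 libraries gave p = 0.0286, the smallest that 70 relabelings allow, as 1 of 9 such tests and not adjusted.

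The call of Axin2 lay at the threshold. With 1 library left out at a time, the adjusted p was 0.148, 0.142, 0.140 and 0.0631 in the absence of CML 1, 2, 3 and 5, and 0.0718, 0.0638, 0.0400 and 0.0436 in the absence of CML-TKI 1 to 4, so that Axin2 stayed past the threshold only when CML-TKI 3 or 4 was the library left out. These fits gave log2 fold changes from 1.96 without CML-TKI 1 to 3.31 without CML 5. The value was above 0 in all 19 alternatives in which Axin2 could be tested and past the threshold in 5 of these 19, among them DESeq2 (adjusted p = 0.00545) and limma-voom with sample quality weights (adjusted p = 0.00759). With CML 1 to 3 summed to 1 library it was 2.46 (adjusted p = 0.406). Axin2 shares 207 exon bases with an antisense gene, Gm11670, and no source says that strand was used in counting, so reads of both cannot be told apart.

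**Figure D2:**
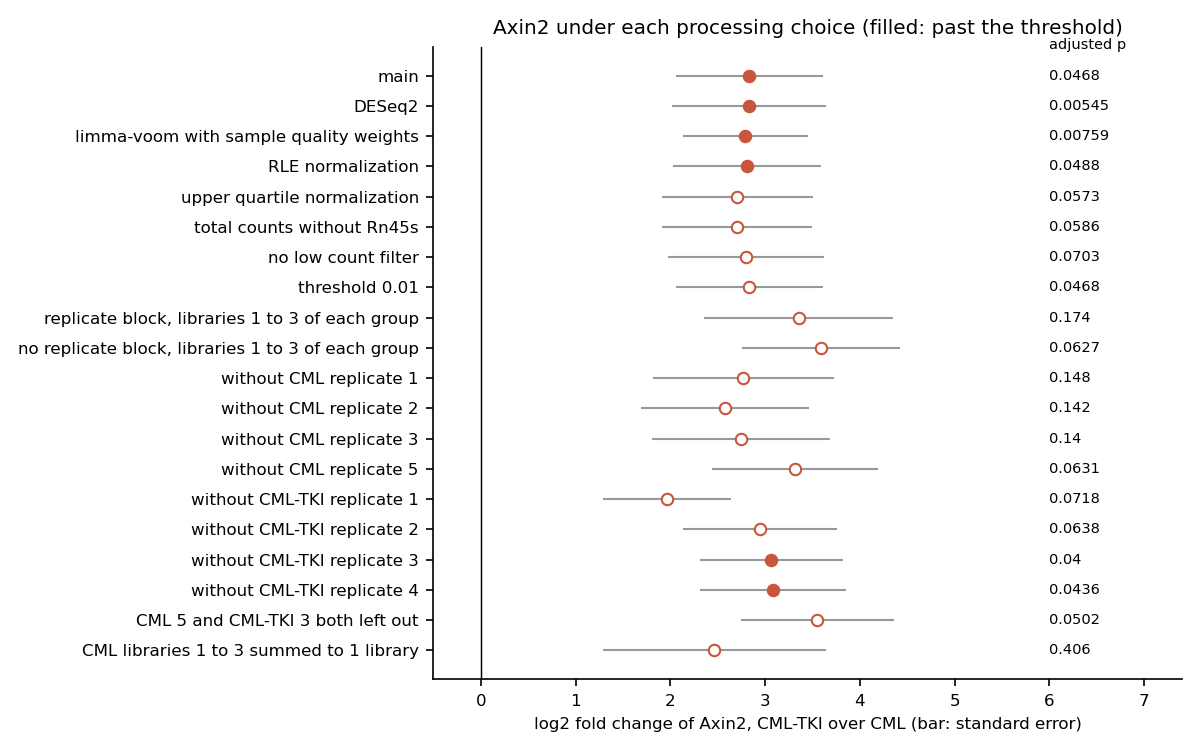
Log2 fold change of Axin2 in CML-TKI over CML LSCs (x axis, bars are standard errors) under each processing choice (y axis), with the adjusted p at the right and filled points where it is past the threshold. All values lie above 0, from 1.96 to 3.59, while 14 of the 19 alternatives are open points.

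Axin1, the constantly made scaffold of the complex, lies on chromosome 17 from 26131217 to 26195811 on the plus strand. Its level was 110.4, 110.6, 109.4 and 107.1 CPM in CML 1, 2, 3 and 5, and 85.5, 65.4, 162.2 and 88.2 CPM in CML-TKI 1 to 4. The CML libraries were within 4 CPM of each other, and 3 CML-TKI libraries lay below them and CML-TKI 3 above. The groups differed by a log2 fold change of -0.14 (SE 0.28, 95% interval of the fold 0.593 to 1.39, edgeR adjusted p = 0.798), and without CML-TKI 2 it was 0.01.

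Apc, the large tumor suppressor scaffold that holds beta-catenin in the complex, lies on chromosome 18 from 34220297 to 34322190. It had 161.7, 165.4, 179.9 and 27.2 CPM in CML 1, 2, 3 and 5, and 198.7, 148.8, 58.1 and 111.1 CPM in CML-TKI 1 to 4. CML 5 was the lowest of the 8 libraries, at 0.161 times the mean of CML 1 to 3. For Apc the log2 fold change was -0.04 (SE 0.54, fold interval 0.425 to 2.24, edgeR adjusted p = 0.976) and -0.38 without CML 5, which left it below the threshold (adjusted p = 0.568).

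Gsk3b, the kinase that phosphorylates beta-catenin, lies on chromosome 16 from 38089001 to 38246084 on the plus strand. Its level was 160.7, 170.0, 167.2 and 95.4 CPM in CML 1, 2, 3 and 5, and 176.4, 137.6, 148.0 and 131.6 CPM in CML-TKI 1 to 4. CML 5 was again lowest, at 0.575 times the mean of CML 1 to 3, and the CML-TKI libraries lay between it and just above the other CML libraries. The fold was 1.001 (95% interval 0.697 to 1.44, edgeR adjusted p = 0.997), and without CML 5 the log2 fold change was -0.17.

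The members for which CML 5 was low were those with the most exon sequence. Apc has 13.2 kb of exon, Lrp6 9.37 kb and Gsk3b 8.34 kb, and the other 6 members have 2.63 to 4.43 kb. Among 575 genes with 8 kb or more of exon and a mean of 5 or more on the log2 CPM scale, the median level in CML 5 was 0.93 lower on the log2 scale than the mean of CML 1 to 3, while in 676 genes under 2 kb it was 0.53 higher. In the other 7 libraries the medians at 8 kb or more were -0.19 to 0.01. CML 5 also had 38.3% of its counts on Rn45s, a ribosomal RNA precursor, beside 20.2% to 23.1% in CML 1 to 3. In CML-TKI libraries it was 9.23% to 22.5%. The part of exon length or of Rn45s in the values of Apc, Lrp6 and Gsk3b was not tested. Each of these genes is given without CML 5 as well, where Lrp6 had a log2 fold change of 0.18.

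**Figure D3:**
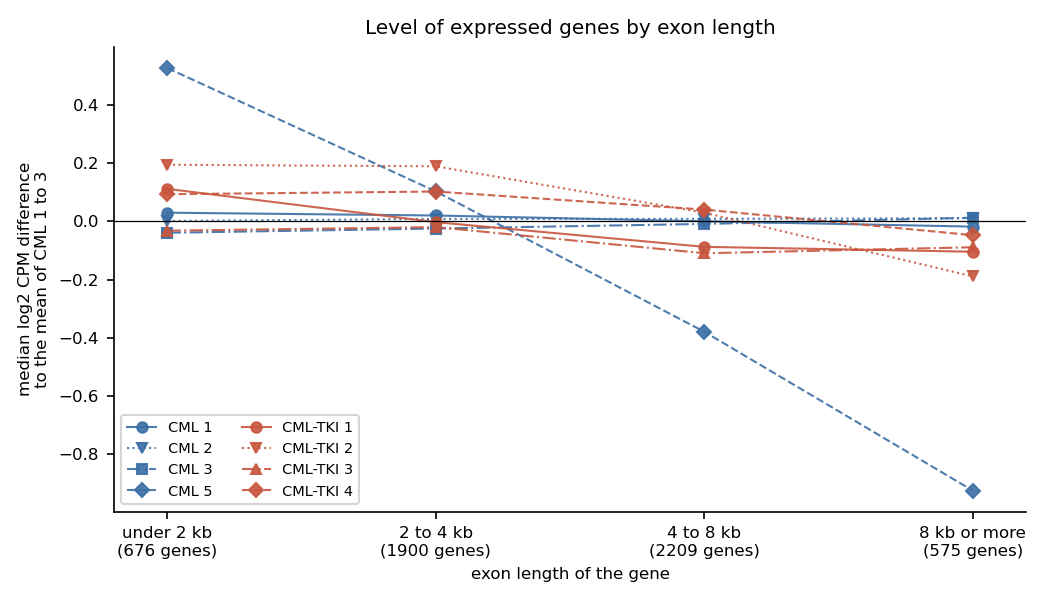
Median difference in log2 CPM from the mean of CML 1 to 3 (y axis) for genes whose mean was 5 or more on that scale, in 4 classes of exon length (x axis, number of genes in brackets), 1 line per library. CML 5 goes from 0.53 under 2 kb to -0.93 at 8 kb or more, and the other libraries stay between -0.19 and 0.19.

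Ctnnb1, which encodes beta-catenin, lies on chromosome 9 from 120933400 to 120960507 on the plus strand. It had 611.1, 610.1, 611.2 and 614.7 CPM in CML 1, 2, 3 and 5, and 544.5, 528.1, 400.0 and 437.3 CPM in CML-TKI 1 to 4. The CML libraries were nearly equal, with a coefficient of variation of 0.326%. That is less than counting error alone gives on average at their 3161 to 4487 counts, so it does not measure their spread. Each CML-TKI library was lower than all of them, and the CML-TKI libraries had a coefficient of variation of 14.6%. CML 5 did not stand apart here. The log2 fold change was -0.36 (SE 0.18, edgeR adjusted p = 0.255), a fold with a 95% interval of 0.589 to 1.04. The exact two-sided permutation test gave p = 0.0286, the smallest that the 70 relabelings allow and not adjusted for the 9 tests. Ctnnb1 was below 0 and not past the threshold in all 20 alternatives.

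Ctnnb1 and Axin2 were also set beside the genes with the most similar pattern, by the Pearson correlation of log2 CPM over the 8 libraries, given as a description. The libraries share their groups and depth, so a gene that differs between the groups scores high. For Ctnnb1 the 3 leading genes were Mansc1 (r = 0.993), Hoxa7 (r = 0.992), a homeobox gene, and Prdm16 (r = 0.992), a regulator of stem cell transcription, which had 55.2 to 64.9 CPM in CML and 2.19 to 19.4 CPM in CML-TKI libraries. For Axin2 they were Fam129b (r = 0.988), Atp6ap1 (r = 0.977), an accessory subunit of the vacuolar proton pump, and Tubb2a (r = 0.976), a beta-tubulin. Like Axin2, Tubb2a was highest in CML-TKI 1, at 168.7 CPM, beside 27.1 to 40.6 CPM in the other CML-TKI libraries.

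Of the DNA-binding partners of beta-catenin, Tcf7l2 was the only one tested. It lies on chromosome 19 from 55741797 to 55933659 on the plus strand and had 9.67, 8.11, 12.0 and 12.5 CPM in CML 1, 2, 3 and 5, and 8.17, 1.24, 9.86 and 2.602 CPM in CML-TKI 1 to 4. CML-TKI 2 and 4 lay below all CML libraries, and CML-TKI 1 and 3 within their range. Its log2 fold change was -1.01 (SE 0.65, 95% interval of the fold 0.181 to 1.36, edgeR adjusted p = 0.368), below 0 in all 20 alternatives and past the threshold in 0 of them.

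Lef1, a TCF/LEF factor prominent in early lymphocytes, lies on chromosome 3 from 131110297 to 131224357 on the plus strand. It had 1, 0, 0 and 1 counts in CML 1, 2, 3 and 5, and 0, 6, 8 and 11 counts in CML-TKI 1 to 4, fewer than the 3 counts of the floor in the CML libraries and in CML-TKI 1. CML-TKI 2 to 4 had 1.86, 8.77 and 2.86 CPM. Over the pooled counts, 25 in CML-TKI and 2 in CML, the rate was 23.6 times higher, with an exact 95% interval of 5.88 to 205.3 that covers counting error only and not the spread between libraries. Lef1 failed the filter on low counts of the test used for the other members. DESeq2 without that filter gave it an adjusted p of 0.0246 and edgeR without the filter 0.0927, edgeR with CML 1 to 3 summed gave 0.403, and the exact permutation test gave p = 0.143. Lef1 shares 1208 exon bases with the antisense gene Gm43352, so its reads are uncertain in the same way as those of Axin2.

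Tcf7, the factor known as TCF1 and a defining gene of the T cell lineage, lies on chromosome 11 from 52246527 to 52283383 on the minus strand. It had 5, 3, 4 and 5 counts in CML 1, 2, 3 and 5, and 20, 0, 4 and 38 counts in CML-TKI 1 to 4, which is 0.579 to 0.773 CPM in the CML libraries and 3.80, 0, 4.38 and 9.89 CPM in the CML-TKI libraries. CML-TKI 2 had no count, at a floor of 0.930 CPM, and the other 3 were above all CML libraries. The pooled rate was 6.87 times higher in CML-TKI (62 against 17 counts, exact 95% interval 3.97 to 12.5, counting error only). Most of it rested on CML-TKI 4, with 38 of the 62 counts. Tcf7 failed the filter of the main test. An exact two-sided permutation test of its log2 CPM gave p = 0.143 with a prior count of 2 and 0.486 with a prior count of 0.5. It could be tested in edgeR without CML 1, 2, 3 or 5, where the adjusted p was 0.250 to 0.303, without CML-TKI 2, the library with no count, where it was 0.0227, without the filter, where it was 0.186, and with CML 1 to 3 summed, where it was 0.562. DESeq2 gave 0.0821.

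Lymphocyte markers were set beside these factors. Of 10 T cell markers, 3 could be tested and 0 were called, and their summed level was 25.5 to 44.8 CPM in the CML libraries and 10.4, 15.5, 98.6 and 53.1 CPM in CML-TKI 1 to 4. Lat, a signalling adaptor of T cells that platelets and megakaryocytes also make, held most of the sum in CML, with 17.6 to 41.7 CPM there and 0.310 to 16.9 CPM in CML-TKI libraries (log2 fold change -1.97, adjusted p = 0.148). Cd247, a chain of the T cell receptor complex, and Cd4 were the other markers tested, with 1.24 to 4.83 and 0.772 to 4.63 CPM in CML and 0 to 8.77 and 0 to 14.2 CPM in CML-TKI libraries (adjusted p = 0.885 and 0.696). Cd3e, Cd3g, Cd8a, Themis and Bcl11b were at 0 in all CML libraries, and CML-TKI 3 had 46.0 CPM of Cd8a and no count of Cd3g. Bcl11b was highest in CML-TKI 2, with 10.8 CPM, where Tcf7 had no count. Lef1 was highest in CML-TKI 3 and Tcf7 in CML-TKI 4, the libraries with the higher sums. Tcf7 had 3.80 CPM in CML-TKI 1, whose sum, with Lat in it, was the lowest of all 8. Cd3e had 1.33 CPM in that library. Lef1 had 1.86 CPM in CML-TKI 2. Among B cell markers, only Cd79b could be tested, with 16.1 to 20.3 CPM in CML and 13.7, 16.1, 33.98 and 13.8 CPM in CML-TKI 1 to 4 (adjusted p = 0.862). Pax5, Ebf1, Ms4a1 and Cd79a were at 0 to 1.54 CPM in CML libraries and at 51.5, 28.5, 37.3 and 12.1 CPM in CML-TKI 3, where each was higher than in any other library, while Vpreb1 and Vpreb3 were at 0 there. The part of these markers in the levels of Lef1 and Tcf7 was not tested.

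The rest of the pathway was described by lists of 157 other genes, of which 131 were in the table and 101 could be tested. Of these, 5 rose in CML-TKI LSCs (Cdh1, Celsr3, Id2, Birc5 and Tle3) and 6 fell (Fzd8, Mycn, Sfrp1, Jun, Tle6 and Bcl9l). That is 10.9%, beside the 10.2% of all genes tested. The median log2 fold change was -0.19. Leaving out CML 1, 2, 3 or 5 brought the number called to 3, 5, 4 and 6, leaving out CML-TKI 4 to 6, and leaving out CML-TKI 1 to 30. DESeq2 called 22 of the 111 to which it gave an adjusted p (19.8%), beside 17.7% of all genes, and limma-voom 26 of 101 (25.7%), beside 21.5%.

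**Figure D4:**
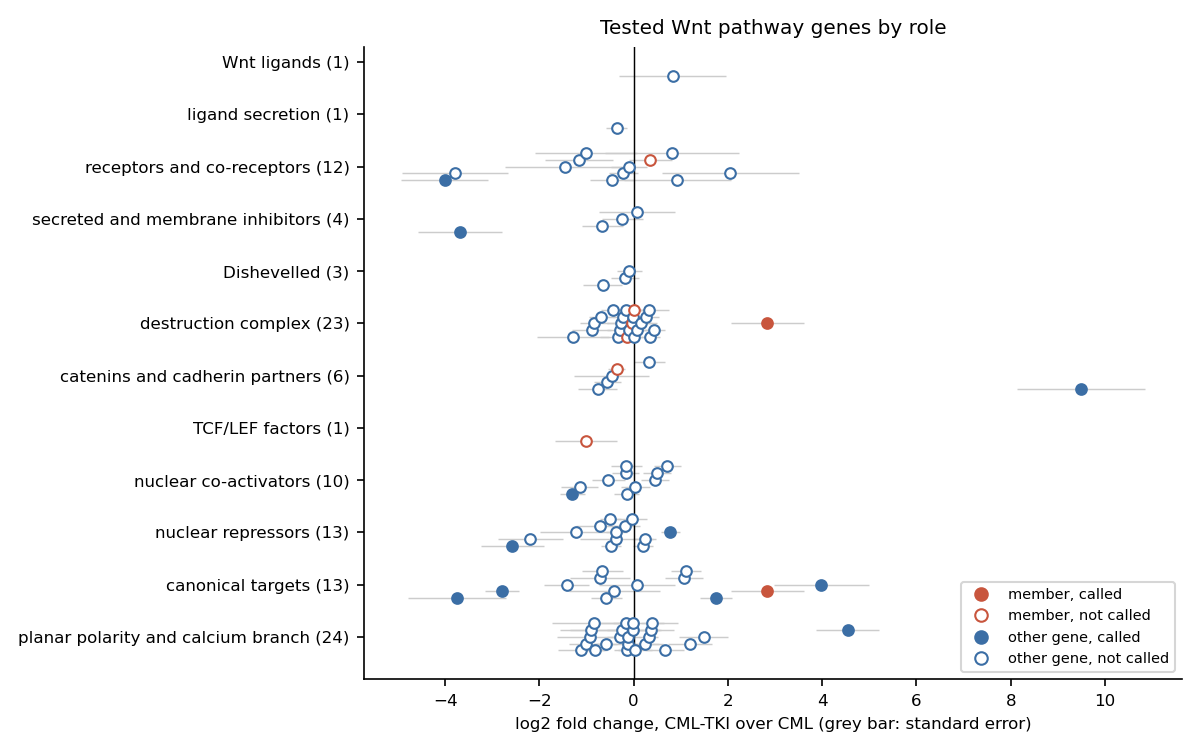
Log2 fold change of each tested Wnt pathway gene in CML-TKI over CML LSCs (x axis, grey bars are standard errors) by its role (y axis, number tested in brackets), with the 9 members described here in red and the others in blue, filled where the adjusted p is under 0.05. Genes in 2 roles, such as Axin2, are drawn in both. Most points lie near 0, and 1 member and 11 other genes are filled.

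Of the Wnt ligands, 9 of 19 listed were in the table and only Wnt2b could be tested, with 0.687 to 5.60 CPM in CML and 0 to 19.7 CPM in CML-TKI libraries (log2 fold change 0.83, adjusted p = 0.699 from edgeR). Wls, which escorts ligands out of the cell, had 125.1 ± 22.1 and 97.3 ± 18.4 CPM (SD, n = 4; adjusted p = 0.342). Of 12 receptors and co-receptors tested, 0 rose and 1 fell, which is 8.33% beside the 10.2% of all genes. This was the Frizzled receptor Fzd8, with 15.5 to 28.5 CPM in CML libraries, 3.80 CPM in CML-TKI 1 and 0, 0 and 0.520 CPM in CML-TKI 2 to 4 (log2 fold change -4.01, SE 0.92, edgeR adjusted p = 0.0239). Fzd6, chosen after its values were seen, had 30.1 to 36.5 CPM in CML and 7.79, 0, 0 and 0 CPM in CML-TKI 1 to 4, with an adjusted p of 0.0598. The R-spondins, which strengthen the signal, could not be tested, and their highest member, Rspo1, had 0 to 0.387 CPM in CML and 0.930 to 17.5 CPM in CML-TKI libraries.

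Among 4 inhibitors tested, 0 rose and 1 fell, which is 25% of this short list beside the 10.2% of all genes tested. Sfrp1, a secreted binder of Wnt ligands, had 10.8, 13.5, 10.2 and 5.91 CPM in CML and 1.71, 0, 1.10 and 0.260 CPM in CML-TKI libraries (log2 fold change -3.69, SE 0.89, edgeR adjusted p = 0.0283). Kremen1, the highest of the list, did not pass (42.8 ± 6.44 against 36.8 ± 22.2 CPM, adjusted p = 0.778). The membrane ligase Rnf43, which removes Frizzled receptors, was not tested and is named after its values were seen, at 0 to 0.825 CPM in CML and 1.71, 8.99, 23.0 and 17.95 CPM in CML-TKI 1 to 4. Of the 3 Dishevelled genes 0 were called, with Dvl1 at 62.6 ± 7.96 and 55.8 ± 23.7 CPM (SD, n = 4).

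All 23 genes of the destruction complex could be tested, and Axin2 was the 1 called, against 0 that fell. That is 4.35%, beside the 10.2% of all genes tested. The median log2 fold change of the complex was -0.10, and its highest gene, Csnk1a1, the casein kinase that primes beta-catenin for GSK3B, had 333.4 ± 19.9 and 334.9 ± 67.8 CPM (SD, n = 4; log2 fold change 0.01, adjusted p = 0.987). Of the 6 catenins and cadherin partners tested, 1 rose and 0 fell, which is 16.7% beside the 10.2% of all genes. Cdh1, the cadherin that binds beta-catenin at the membrane, had no count in any CML library and 3.42, 11.2, 19.7 and 41.1 CPM in CML-TKI 1 to 4 (adjusted p = 0.00775 from edgeR). Their mean of 18.9 CPM, raised most by CML-TKI 4, was at least 32.5-fold higher when CML is set to the highest CPM that 3 counts gave among its libraries. Cdh1 was higher and Ctnnb1 lower in every CML-TKI library, as were 10.3% and 13.1% of all genes tested, and only Cdh1 passed the test.

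In the nucleus, 1 gene rose and 2 fell. The share called was 10% of the co-activators and 15.4% of the repressors, beside the 10.2% of all genes tested. Of 10 co-activators tested, Bcl9l, which links beta-catenin to the transcription machinery, fell from 78.0 ± 9.09 to 31.4 ± 10.1 CPM (SD, n = 4; log2 fold change -1.30, adjusted p = 0.0140 from edgeR), with all CML-TKI libraries below all CML libraries. Kmt2a, the highest of that list, did not pass in edgeR (447.5 ± 158.0 against 308.8 ± 103.6 CPM, adjusted p = 0.378; 0.0275 with limma-voom), and CML 5 held 211.4 CPM of it beside 508.0 to 543.5 CPM in the other CML libraries. Of 13 repressors, the Groucho-family gene Tle3 rose from 58.6 ± 6.40 to 100.6 ± 16.8 CPM (log2 fold change 0.78, adjusted p = 0.0420), and Tle6, another member of the family, fell from 23.4 ± 5.66 to 3.50 ± 3.50 CPM (log2 fold change -2.58, adjusted p = 0.0380). The family thus did not move one way. Ctbp1, the highest repressor, was lower in every CML-TKI library without passing the test (313.9 ± 56.1 against 225.0 ± 34.1 CPM, adjusted p = 0.179).

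Among 13 canonical target genes tested, Axin2 included, 3 rose and 2 fell, which is 38.5% beside the 10.2% of all genes. Jun, the AP-1 factor, fell, with 482.9 to 720.8 CPM in CML and 43.8 to 119.9 CPM in CML-TKI libraries (log2 fold change -2.79, SE 0.37, edgeR adjusted p = 0.00195). Mycn, a proto-oncogene of the Myc family, had 165.2 to 275.9 CPM in CML and 46.9, 0, 1.10 and 6.50 CPM in CML-TKI 1 to 4 (log2 fold change -3.74, adjusted p = 0.0493). Id2, an inhibitor of bHLH factors, had 0.953 to 2.20 CPM in CML and 85.3, 8.37, 5.48 and 4.94 CPM in CML-TKI 1 to 4 (log2 fold change 3.98, adjusted p = 0.0336). In Axin2, Id2 and Mycn alike, CML-TKI 1 was the highest CML-TKI library. Birc5, which encodes the mitotic protein survivin, rose from 14.6 ± 5.64 to 49.5 ± 11.7 CPM (log2 fold change 1.75, adjusted p = 0.0119). Ccnd2, the highest target, was lower in every CML-TKI library without passing the test (587.7 ± 120.0 against 218.0 ± 155.0 CPM, adjusted p = 0.0907), and its adjusted p was 0.0128 without CML-TKI 1, 0.0191 with DESeq2 and 0.00155 with limma-voom. Myc itself, also named outside the rule, had 111.2 ± 20.7 and 73.4 ± 32.3 CPM (adjusted p = 0.301), and Cd44, chosen after its values were seen, 158.7 ± 19.4 and 342.3 ± 160.3 CPM (adjusted p = 0.0509). The known targets of the list were thus called in both directions, and Axin2 was 1 of 3 that rose.

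Outside the canonical pathway, 24 genes of the planar polarity and calcium branches were tested, of which 1 rose and 0 fell. This share of 4.17% stands beside the 10.2% of all genes tested. Celsr3, a cadherin of planar polarity, had 0.272 to 0.962 CPM in CML and 6.84, 17.7, 27.4 and 15.9 CPM in CML-TKI 1 to 4 (log2 fold change 4.54, SE 0.66, edgeR adjusted p = 0.0031). Cdc42, the small GTPase with the highest level of the list, was higher in every CML-TKI library without passing the test (316.9 ± 2.95 against 407.8 ± 113.1 CPM, adjusted p = 0.335).

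**Figure D5:**
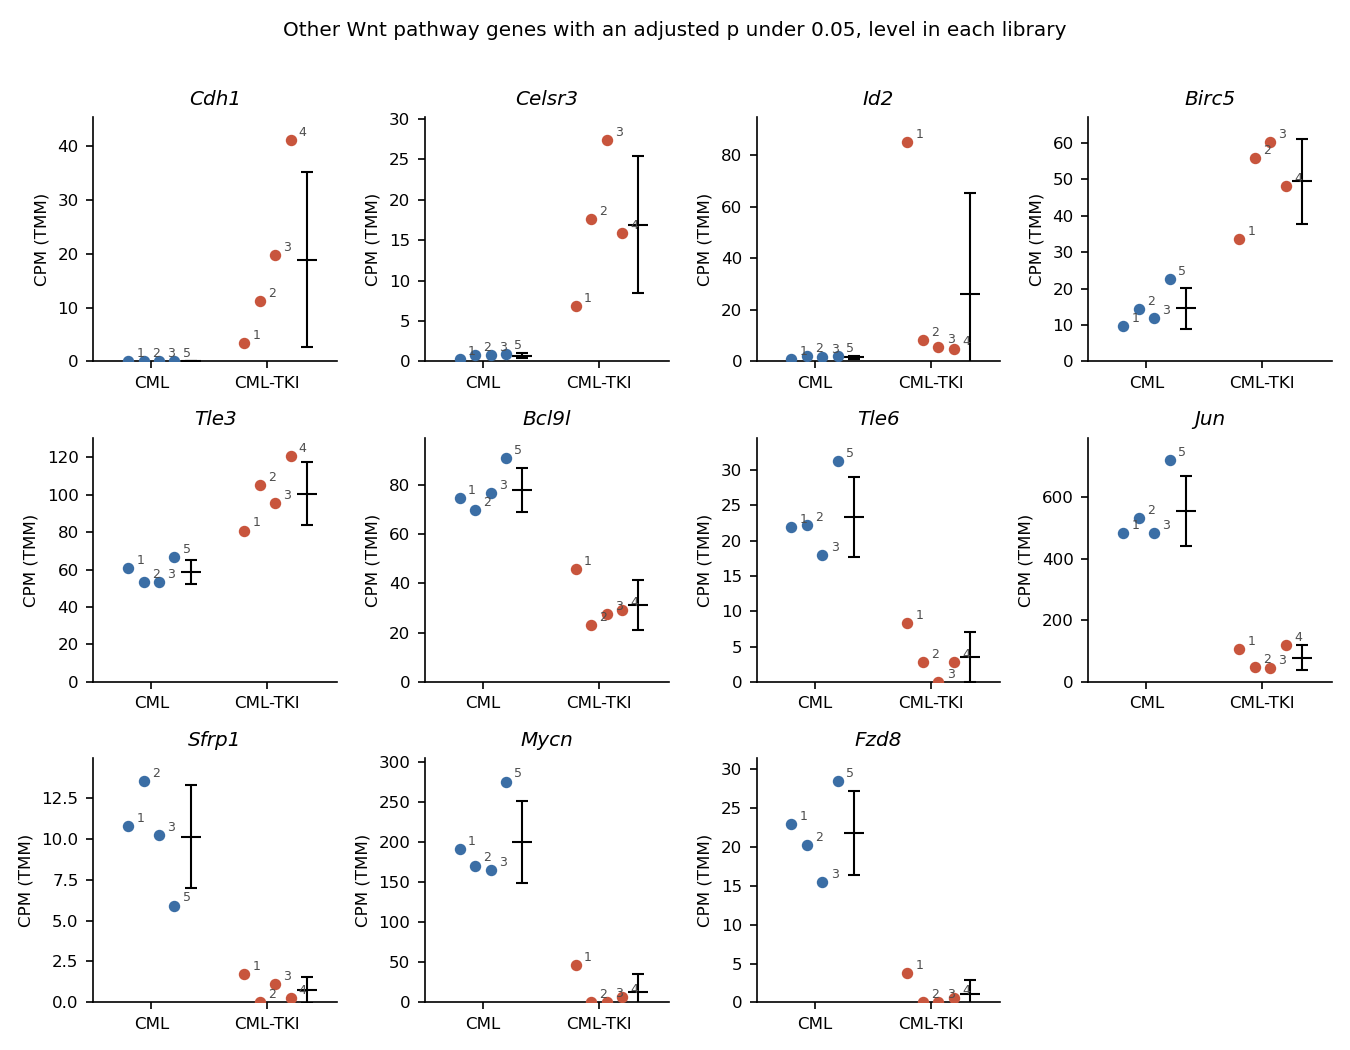
Level of the 11 other Wnt pathway genes with an adjusted p under 0.05 in each library, in TMM-normalized CPM on a linear axis from 0, ordered by log2 fold change, with library numbers beside the points and the mean ± SD (n = 4) in black, cut at 0 where it would go lower. The groups do not overlap in any of the 11, which were chosen by their adjusted p on the same libraries, so this adds no support. Of all genes tested, 10.3% were higher and 13.1% lower in every CML-TKI library. CML-TKI 1 lies far above the other CML-TKI libraries for Id2 and Mycn.

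The calls of these other genes rested on the libraries to different degrees. Cdh1, Celsr3 and Jun were past the threshold with any 1 library left out. Jun kept the call in all 20 alternatives, while Cdh1 lost it with CML 1 to 3 summed (adjusted p = 0.0585), with the replicate block (0.135) and with CML 5 and CML-TKI 3 both left out (0.0528), and Celsr3 with the first 2 of these (0.0887 and 0.0663). Bcl9l lost the call without CML 1 (adjusted p = 0.0509), and Birc5 without CML 1 (0.0502) and CML 3 (0.0509). Both also lost it with the replicate block (0.146 and 0.0694), with CML 1 to 3 summed (0.163 and 0.219) and at the stricter threshold. Bcl9l lost it as well with libraries 1 to 3 alone without the block (0.0817). With CML 5 and CML-TKI 3 both left out, Bcl9l had 0.0570. Id2 lost it without any 1 CML library (0.0884 to 0.108), and its log2 fold change was 1.91 without CML-TKI 1. Fzd8 lost it without any 1 CML library or CML-TKI 4 (0.0532 to 0.0758), and Sfrp1 without the same 5 (0.0550 to 0.102). Without CML-TKI 1, the log2 fold changes of Fzd8, Mycn and Sfrp1 were -6.35, -6.05 and -5.09. Among the fits with 1 library left out, Mycn kept the call only without CML-TKI 1 (0.000972) or 2 (0.0459). Of the same fits, Tle6 kept it only without CML-TKI 1 (0.00458) or 3 (0.0263), and Tle3 only without CML 5 (0.0469), CML-TKI 1 (0.0158) or CML-TKI 3 (0.0456). Id2, Fzd8, Sfrp1, Mycn, Tle6 and Tle3 all lost the call with the replicate block and with CML 1 to 3 summed. They also lost it with libraries 1 to 3 alone without the block and at the stricter threshold. All of them except Tle3 lost it with CML 5 and CML-TKI 3 both left out. Without the filter, Mycn (0.0839) and Tle3 (0.0663) were also not called, nor were they with upper quartile normalization (0.0516 and 0.0768), and Tle3 had 0.0879 with total counts.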

How the data were processed

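RNA of sorted bone marrow LSCs was isolated by the authors with the RNeasy Plus kit and sequenced from Nextera XT libraries. Per the labels and the paper, reads were aligned to mm10 with STAR 2.6.1d in Partek Flow 8.0 and assigned to RefSeq transcripts. The values the authors deposited are estimated counts per gene, not normalized, with 1 column per library. No source says that strand was used.

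The estimates were rounded and 11937 genes passed filterByExpr at a minimum count of 10 and a total of 15. They were normalized by TMM and tested in edgeR 4.0.16 (R 4.3.3) by its robust quasi-likelihood fit, adjusted over all of them after Benjamini-Hochberg, at a threshold of 0.05. The fit used 4 CML and 4 CML-TKI libraries without covariates. CPM values are TMM-normalized. The permutation tests used log2 CPM with a prior count of 2. The script was tested on simulated data. Exon lengths and antisense overlaps came from the GENCODE basic annotation of GRCm38 (the assembly of mm10), gene coordinates and promoter windows from RefSeq.

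Genes were named by a rule: the 9 members, other Wnt genes with an adjusted p under 0.05, the gene with the highest level in each role list, the 3 genes closest to Ctnnb1 and to each called member, and the markers of the gate. Fzd6, Rnf43, Myc, Cd44, single T and B cell markers are named outside it, after their values were seen. 1 B cell marker is not reported here. The members, lists and rule were chosen with earlier results of these data known. Alternatives were DESeq2 1.42.0, limma 3.58.1 (voom with quality weights), other normalizations and filters, a threshold of 0.01, a replicate block, a prior count of 0.5 and libraries left out or summed.

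Total counts of 1041552 to 8620101 put the floor of 3 counts at 0.409 to 0.580 CPM in the CML and 0.570 to 3.29 CPM in the CML-TKI libraries. Without molecular identifiers, floors and intervals cover counting error only.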

Additional observations from a re-analysis of the deposited data

Results flagged for a closer look

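In 113 groups of 4 libraries, for the genes whose levels are given above, 21 held a library far from the other 3 by Dixon's test, where chance gives about 1 in 20 groups. CML 5 was such a library for 4 genes, lying below the others. It had 27.2 CPM of Apc where the other CML libraries had 161.7 to 179.9, 95.4 CPM of Gsk3b beside 160.7 to 170.0, 108.9 CPM of Lrp6 beside 189.0 to 194.2, and 211.4 CPM of Kmt2a beside 508.0 to 543.5. CML-TKI 1 was such a library for 5 genes, lying above the others. It had 3.80 CPM of Fzd8 beside 0 to 0.520 in the other CML-TKI libraries, 85.3 CPM of Id2 beside 4.94 to 8.37, 46.9 CPM of Mycn beside 0 to 6.50, 168.7 CPM of Tubb2a beside 27.1 to 40.6, and 7.79 CPM of Fzd6 where the others had 0. CML-TKI 3 had 46.0 CPM of Cd8a beside 0.310 to 2.602, 51.5 CPM of Pax5 beside 0 to 3.23, 28.5 CPM of Ebf1 beside 0 to 0.570, 37.3 CPM of Ms4a1 beside 0 to 2.79, 12.1 CPM of Cd79a beside 0 to 1.04 and 33.98 CPM of Cd79b beside 13.7 to 16.1. CML-TKI 4 had 3.12 CPM of Cd3g where the others had 0, and CML 3 had 64.9 CPM of Prdm16 beside 55.2 to 56.5 and 20.3 CPM of Cd79b beside 16.1 to 16.2. Vpreb1 was at 0.817 CPM in CML 1 and at 0 in the other CML libraries, and Vpreb3 at 0.386 CPM in CML 3 and 1.24 CPM in CML-TKI 2 and at 0 in the others of each group. Fzd6 and the T and B cell markers were named after their values were seen.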

How the results depend on the processing

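Of the 7 tested members, Ctnnb1 and Tcf7l2 kept their direction and stayed short of the threshold in all 20 alternatives. Axin2 kept its direction in all 19 that tested it and lost the call in 14. The members called numbered 2 with DESeq2 (Axin2 and Lef1) and 0 with upper quartile or total-count normalization, no filter, the stricter filter (which removed Axin2), a threshold of 0.01, libraries 1 to 3 alone with or without the block, CML 5 and CML-TKI 3 both left out, or CML 1 to 3 summed. In the settings that lost it, Axin2 had log2 fold changes (adjusted p) of 2.71 (0.0573) with upper quartile, 2.70 (0.0586) with total counts without Rn45s, 2.80 (0.0703) without the filter, 2.83 (0.0468) at the 0.01 threshold, 3.55 (0.0502) with CML 5 and CML-TKI 3 both left out and 2.46 (0.406) with CML 1 to 3 summed. With 1 library left out at a time, it ranged from 1.96 to 3.31 (adjusted p 0.0400 to 0.148).

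Over all genes, 1220 were called in the main analysis, 2420 with DESeq2, 2563 with limma-voom, 395 at the 0.01 threshold, 122 with CML 1 to 3 summed and 505 to 2504 with 1 library left out (505, 552, 570 and 808 without CML 1, 2, 3 and 5, and 2504 without CML-TKI 1). Of the other Wnt genes, 22 were called with DESeq2, 26 with limma-voom, 3 at the 0.01 threshold, 6 with CML 5 and CML-TKI 3 both left out, 1 with CML 1 to 3 summed and 3 to 30 with 1 library left out, and of the members 0 to 1.

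Whether library numbers 1 to 3 pair the libraries could not be decided. The correlations of their deviations from the group means were -0.042, 0.097 and 0.093. CML 1 to 3 were so close to each other that their deviations were largely shared, so these correlations could not show pairing. With these 6 libraries, the replicate block gave 193 genes, 0 members and 1 other Wnt gene called, and no replicate block 589, 0 and 4. Axin2 was 3.35 (0.174) with the replicate block and 3.59 (0.0627) without it.

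Some genes that were not called changed sign, none of them past the threshold. Gsk3b (0.0015 in the main analysis) was -0.015 with DESeq2, -0.19 with limma-voom, -0.0088 with RLE, -0.085 with upper quartile, -0.13 with total counts, -0.035 without the filter, -0.10 with and -0.095 without the replicate block and -0.15 with CML 5 and CML-TKI 3 both left out. Csnk1a1 was -0.013 with DESeq2, -0.014 with limma-voom, -0.0080 with RLE, -0.092 with upper quartile, -0.13 with total counts, -0.026 without the filter, -0.066 with and -0.037 without the replicate block. Lrp6 was -0.30 with limma-voom, Apc 0.38 with CML 1 to 3 summed, Kremen1 0.0015 with and 0.11 without the replicate block, Dvl1 0.047 without it, and Wnt2b -0.71 with limma-voom, -0.65 with the replicate block and -0.56 with CML 5 and CML-TKI 3 both left out. With 1 library left out, Apc ranged from -0.38 to 0.21, Axin1 from -0.45 to 0.013, Gsk3b from -0.17 to 0.064, Lrp6 from -0.15 to 0.60, Wnt2b from -0.20 to 1.25, Kremen1 from -0.55 to 0.028 and Csnk1a1 from -0.14 to 0.087. The causes were not tested. Total-count, upper quartile and limma-voom scaling moved the median of all genes to -0.14, -0.10 and -0.11.

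In the CML libraries Lef1 and Tcf7 were at or near the floor, and Axin2 in CML-TKI 3 rested on 4 counts. Leaving out CML 5 with CML-TKI 3 and the fit without the block on 6 libraries were chosen after seeing the data.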
